A study of Mus musculus with 13 samples.

Results

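The miRNAs described here are the members of 4 mouse name families, miR-297, miR-466, miR-467 and miR-669. They were chosen by name alone, as every mouse array name with one of these 4 beginnings. The rule gave 61 of the 1122 mouse miRNAs on the array, with 3 members named miR-297, 23 named miR-466, 12 named miR-467 and 23 named miR-669. Of these, 25 carry a 5p arm in their name, 26 a 3p arm and 10 no arm.

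MicroRNA levels were measured in 13 mouse samples, all of C57BL/6 background, each on its own 1-colour array of total RNA labelled with Cy3. DN are CD4-CD8- thymocytes and DP are CD4+CD8+ thymocytes, both sorted from thymus, with 3 biological replicates each. T-ALL is T-cell acute lymphoblastic leukaemia, taken at an early stage (ES) and at a late stage (LS). Its CD4+CD8+ cells were sorted from the spleen of chimeric mice with N1ICD-transformed bone marrow, again with 3 biological replicates each; N1ICD is the active intracellular part of Notch1. M295 is a cultured mouse T-ALL line and has 1 array. Ages are not given in the sources used here. Organ and disease cannot be told apart, since thymocytes came from thymus and T-ALL cells from spleen, and in bulk samples fewer cells of a type and less RNA per cell cannot be told apart either.

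A primary miRNA transcript is cut to a hairpin, and either arm of the hairpin can be kept as the mature miRNA, named 5p or 3p. Many hairpins of these families lie in a large intronic cluster of Sfmbt2, a gene for a Polycomb-group protein that is imprinted and expressed from the paternal allele in extraembryonic tissue, and the cluster is known for its role in the placenta. The cluster arose by repeated local duplication in rodents, so its members have closely similar sequences, and many are built from runs of UG on the 5p arm and of CA on the 3p arm. In the thymus, CD4-CD8- precursors mature into CD4+CD8+ cells, and Notch1 signalling drives the early steps.

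In the RefSeq gene table of assembly GRCm38.p6, 49 of the 61 members had all their miRNA genes within Sfmbt2 on chromosome 2. A further 3 members, miR-297a-3p, miR-466f-3p and miR-466f-5p, had genes both there and elsewhere. Another 8 had their gene only elsewhere: miR-466i-3p and miR-466i-5p within Cdk13 on chromosome 13, miR-466j on chromosome 10, miR-466k within Gm31419 and miR-466q within Tnik on chromosome 3, miR-467f within Fxr2 on chromosome 11, miR-467g within Grk4 on chromosome 5, and miR-669n within Slc30a7 on chromosome 3. No gene was matched to miR-466a-5p. Several names stand for more than 1 gene, with 8 genes for miR-466b, 10 for miR-467a and 12 for miR-669a, so the signal of such a name is a sum over its copies.

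Mature sequences were matched for 7 members, all from outside Sfmbt2. They had 7 different seeds, the bases 2 to 8 that pair with a target, and 0 of the other array names, of 881 with a sequence, carried any of these seeds. The 5 that were detected on any array are printed to show the repeats of which they are built, since the repeat of each is set beside its values further on. Letters are 5′ to 3′, with the seed in capitals, from RefSeq on GRCm38.p6.
miR-669n: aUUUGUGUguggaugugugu
miR-466j: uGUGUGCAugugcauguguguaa
miR-466i-3p: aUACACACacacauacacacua
miR-466q: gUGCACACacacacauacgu
miR-467f: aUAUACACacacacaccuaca
On that build miR-669n lies at chr3:115979905-115979924 on the plus strand, miR-466j at chr10:60960802-60960824 (plus), miR-466i-3p at chr13:17747552-17747573 (plus), miR-466q at chr3:28419988-28420007 (plus) and miR-467f at chr11:69635419-69635439 (minus). Counted in whole UG or GU pairs, the longest unbroken run had 8 bases in miR-669n and 6 in miR-466j, against 0 to 2 in the other 3. Counted in whole CA or AC pairs, it had 10 bases in miR-466i-3p and 12 in both miR-466q and miR-467f, against 0 and 2 in miR-669n and miR-466j.

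Values are scaled signals on the log2 scale, where 0 is the array's 75th percentile over the 108 miRNAs that exceeded background well on every primary array and -7.59 is a common floor. Values at the floor have no order. Different probes capture their miRNA with different strength, so levels are compared between arrays and never between members. Members with nearly the same sequence may also share signal on a probe, which these arrays cannot separate.

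The arrays detected 148 to 309 mouse miRNAs each. The array ES 1 stood apart: its negative-control spots had a standard deviation of 19 intensity units, against 5.21 to 7.11 on the other 12, and its lowest signal well above background was -6.18, against -8.16 to -7.32 elsewhere. The CD4+CD8+ label of the DP arrays was checked with the miR-181 family, which is abundant in that thymocyte stage. Its summed scaled signal (10 names on the array, linear scale) was 5.52 to 5.99 on the DP arrays, 1.34 to 1.53 in DN, 0.586 to 1.7 in ES, 1.31 to 2.07 in LS and 0.539 in M295. Of its 5 tested names, 4 were lower in DN, 5 in ES and 4 in LS than in DP. The ES and LS cells were also sorted as CD4+CD8+, yet their sums lay below every DP array. The family thus separated the DP from the DN arrays but did not follow the CD4+CD8+ label in T-ALL.

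Markers of other cells were read as well, and only erythroid names and miR-126-3p were called between groups. The erythroid names (miR-451, miR-144 and miR-486, 4 on the array, 2 tested) summed to 0.754 to 1.02 in DN, 0.0115 to 0.0224 in DP, 0.0158 to 0.389 in ES, 0.0895 to 1.61 in LS and 0.0252 in M295; both tested names were higher in DN than in DP, and 1 in LS. The myeloid miR-223 (2 names, 1 tested) summed to 0.0251 to 0.0337 in DN, 0.0063 to 0.00901 in DP, 0.00737 to 7.23 in ES and 0.00968 to 0.0107 in LS, and no comparison called it. The mature-lymphocyte miR-150 (2 names, 1 tested) summed to 0.0325 to 0.0578 in DN, 0.167 to 0.194 in DP, 0.00582 to 0.279 in ES and 0.0107 to 0.0852 in LS, and was called in none. Endothelial and stromal names (10, of which only miR-126-3p was tested) summed to 0.0412 to 0.0451 in DN, 0.0176 to 0.0232 in DP, 0.00272 to 0.0133 in ES and 0.00481 to 0.024 in LS; miR-126-3p was higher in DN than in DP and lower in ES and in LS than in DN. Of 14 epithelial names, 3 were detected on any array and 0 were tested. The part of these cells in the members' results was not tested.

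Detection already set the DP arrays apart from most others. The scanner software marked 29, 31 and 30 of the 61 members as detected on the 3 DP arrays and 22, 22 and 15 on the DN arrays. The T-ALL arrays spread widely, with 3, 24 and 18 members detected on ES 1, ES 2 and ES 3 and 15, 24 and 31 on LS 1, LS 2 and LS 3. M295 had 25. All mouse miRNAs detected on the same arrays numbered 240, 268 and 243 in DP, 234, 222 and 192 in DN, 148, 238 and 281 in ES and 246, 272 and 255 in LS, so ES 3 had the most of the 12 primary arrays while detecting fewer members than any DP array.

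**Figure D1:**
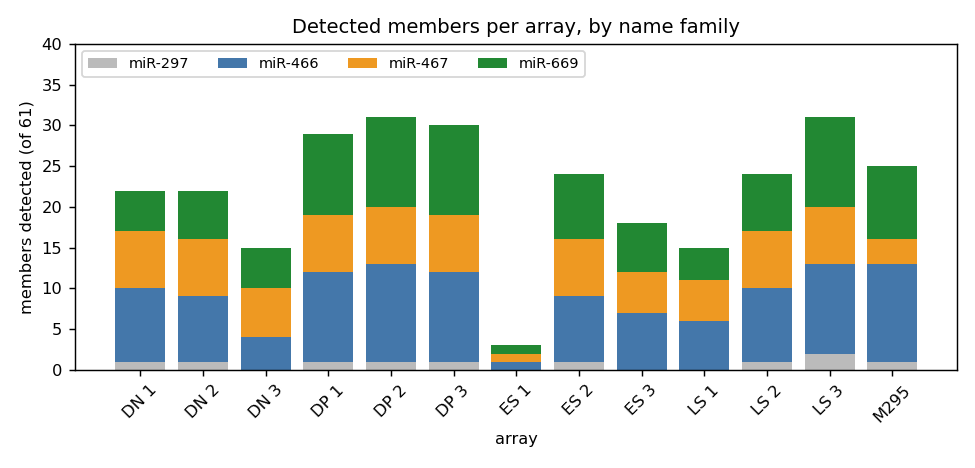
Number of the 61 members marked as detected on each of the 13 arrays, stacked by name family. The DP arrays reach 29 to 31, ES 1 reaches 3, and the other ES and LS arrays lie between 15 and 31.

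No array detected 26 of the 61 members, and these were 15 of the 26 3p names, 6 of the 25 5p names and 5 of the 10 without an arm. By family they were 1 of 3 miR-297, 9 of 23 miR-466, 5 of 12 miR-467 and 11 of 23 miR-669 members. At the other end, 3 members were detected on all 13 arrays: miR-466i-5p, miR-467f and miR-669p-3p. Detection on all 3 arrays of a group was reached by 29 members in DP, 15 in DN, 15 in LS and 3 in ES. M295 detected 17 of the 25 5p names and 4 of the 26 3p names; the DP arrays detected 16 or 17 of the 5p names and 9 of the 3p names.

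Members entered the test when some group had all 3 of its arrays well above background. This left 27 of the 61 (1 miR-297, 11 miR-466, 6 miR-467 and 9 miR-669; 16 with a 5p arm, 7 with a 3p arm, 4 with none) among 229 mouse miRNAs. All 27 passed in DP, and 13 passed in DP only. A member that passed only through DP had to be lower somewhere, so the counts and medians of tested members describe them and carry no further weight. Without any filter, over all 61 members, the 3 DP arrays lay above all 9 other primary arrays for 11 members, against 6.06% of all 1122 mouse miRNAs. These 11 were miR-466c-5p, miR-466f-5p, miR-466h-5p, miR-466j, miR-466m-5p, miR-669e-5p, miR-669f-5p, miR-669k-5p, miR-669l-5p, miR-669n and miR-669o-5p, of which 9 are 5p names, 2 have no arm and 0 are 3p names.

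**Figure D2:**
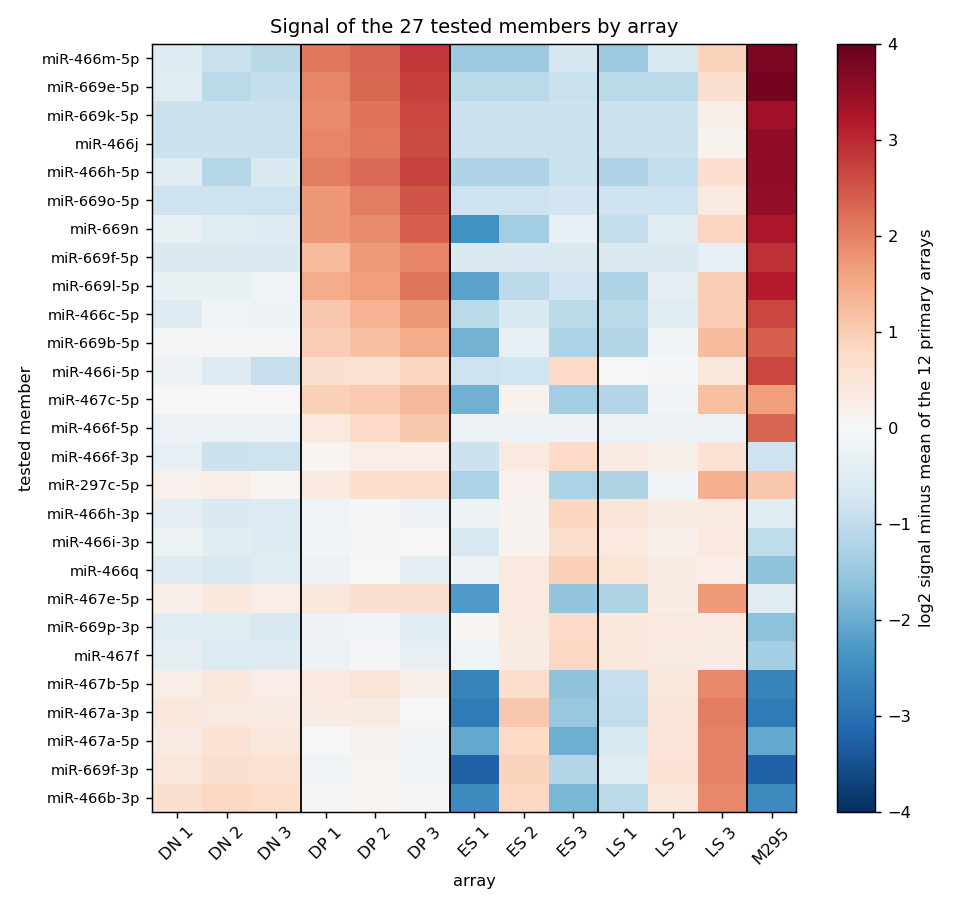
Signal of the 27 tested members (lines of the grid) on the 13 arrays, as log2 scaled signal minus the member's mean over the 12 primary arrays; red is above that mean and blue below. The upper members are red on the DP arrays and on M295 and blue elsewhere, and the lower members vary mainly among the ES and LS arrays.

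DN against DP compares the thymocyte stages before and at CD4+CD8+. In DN, 12 of the 27 tested members were lower and 0 higher, by limma with Benjamini-Hochberg adjustment over all 229 miRNAs at an adjusted p under 0.05; over all 229, 18.8% were lower and 10.5% higher. The 12 were 6 members each of miR-466 and miR-669 and none of miR-467, and 10 of them had passed the filter in DP only. Their differences ran from -3.26 to -1. The median difference was -1 over the tested members and 0.15 over all 229, with -1.50 for the 5p names, -0.28 for the 3p names and -1.39 for those with no arm. Slide 1 held 1 DN and 1 DP array, so the spread there came only from its ES and LS pairs; 6 members were lower and 0 higher, with 7.86% of all 229 called. Within slide 2, which held 2 arrays of each, 17 were lower and 2 higher, with 54.1% of all 229 called. With normexp, another background correction, 5 of the 12 were still called, at 1.61-fold to 2.99-fold lower. Of all 229, 18.3% were called with normexp, against 29.3% without it.

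miR-669n, encoded within Slc30a7 and outside the cluster, was well above background on all DN and DP arrays. Its log2 signal was -2.20, -2.06 and -1.55 in DP and -4.25, -4.43 and -4.46 in DN, so no DN array came near a DP array. It was 5.45-fold lower in DN (log2 difference -2.45, SE 0.54, adjusted p = 0.0067 by limma). The call ended without the filter on dim miRNAs and within slide 1, and the difference was -1.58 with normexp.

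miR-466h-5p read -4.30, -4.08 and -3.65 in DP and -6.78, -7.49 and -6.95 in DN (difference -3.06, SE 0.44, limma adjusted p = 0.000554), with only 1 DN array well above background. miR-466m-5p read -4.05, -3.83 and -3.33 in DP and -6.66, -7.05 and -7.27 in DN, at least 9.56-fold lower (difference -3.26, SE 0.51, limma adjusted p = 0.000926). Here "at least" means that the lower group was well above background on none of its arrays, so that only a bound on the fold can be given. Both are 5p names from within Sfmbt2, and in neither did the groups overlap. With normexp the differences shrank to -0.77 for miR-466h-5p (limma adjusted p = 0.0355) and -0.94 for miR-466m-5p (limma adjusted p = 0.0117), and the call of miR-466m-5p ended within slide 1.

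In 5 other members the signal was at the floor on all DN arrays or nearly so. miR-466j, from chromosome 10, read -4.78, -4.62 and -4.14 in DP and sat at the floor of -7.59 on all 3 DN arrays, at least 7.49-fold lower (limma adjusted p = 2.3e-05). miR-669k-5p read -4.83, -4.54 and -4.03 in DP and was likewise at the floor in DN, at least 7.74-fold lower. miR-669o-5p read -5, -4.69 and -4.24 in DP and was at the floor in DN, at least 6.85-fold lower. In these 3 members DP 3 was the highest array of all 12 and DP 1 the lowest of the DP arrays. The same held in every member whose 3 DP arrays lay above all other primary arrays. miR-669f-5p read -5.75, -5.32 and -5.08 in DP against the floor in DN, at least 4.1-fold lower. miR-669e-5p read -4.56, -4.23 and -3.79 in DP and -7.01, -7.59 and -7.47 in DN, at least 8.43-fold lower (difference -3.17, SE 0.42, limma adjusted p = 0.000341). All of these except miR-466j lie within Sfmbt2. Normexp ended 4 of these 5 calls: miR-466j differed by -0.58 (limma adjusted p = 0.101), miR-669k-5p by -0.61 (0.0899), miR-669o-5p by -0.49 (0.11) and miR-669f-5p by -0.23 (0.384), while miR-669e-5p stayed called at -0.69 (0.0316).

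The remaining 4 of the 12 differed less. miR-669l-5p read -3.98, -3.78 and -3.32 in DP and -5.74, -5.71 and -5.62 in DN (at least 4-fold lower, limma adjusted p = 0.0149), and miR-466c-5p read -5.43, -5.13 and -4.79 in DP and -7.04, -6.69 and -6.74 in DN (at least 3.27-fold lower, limma adjusted p = 0.0139). In both members the bound is the measured fold itself. Both calls ended with normexp (differences -0.70 and -0.18, limma adjusted p = 0.059 and 0.541), without the filter on dim miRNAs, within slide 1 and without DP replicate 3, and that of miR-466c-5p also without DN replicate 1. miR-466f-5p, whose genes lie both inside and outside the cluster, read -6.94, -6.58 and -6.26 in DP and the floor in DN, at least 1.77-fold lower. Its direction turned with normexp (difference 0.07, limma adjusted p = 0.81), and its call ended within slide 1.

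miR-466i-5p, encoded within Cdk13, was the only member well above background on all 12 primary arrays. It read 0.14, 0.12 and 0.37 in DP and -0.70, -0.99 and -1.42 in DN, 2.37-fold lower (difference -1.25, SE 0.39, limma adjusted p = 0.0369). The groups did not overlap, but the call ended when any 1 of the 6 DN and DP arrays was left out, without the filter on dim miRNAs and within slide 1 (highest limma adjusted p over all settings tried 0.202).

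The spread behind these tests is shared by all 12 primary arrays, and the T-ALL arrays vary more than the thymocytes in these families. The 3 DN arrays lay below the 3 DP arrays for 22 of the 27 tested members (35.4% of all 229) and above them for 3 (40.6% of all 229). A limma fit on the 6 thymocyte arrays alone, added after these values were seen, called 21 members lower in DN and 3 higher, where 33.6% and 38% of all 229 were called. The 3 higher in DN were miR-466b-3p (difference 0.76, SE 0.09, limma adjusted p = 0.000561), miR-669f-3p (0.61, SE 0.11, 0.00268) and miR-467a-5p (0.44, SE 0.11, 0.00968). All 3 are from within Sfmbt2, and they were higher in DN in this fit under each of 4 other scalings and summaries and under normexp as well. Among the members lower in DN, the small differences were less steady: miR-467f (-0.26) turned to the other sign with the scaling percentile taken over all miRNAs, and 8 of these 21 turned with normexp.

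ES and LS were each compared with DP. In ES, 13 of the 27 tested members were lower than in DP and 1 was higher, and over all 229 miRNAs 25.3% were lower and 21% higher. In LS, 11 were lower and 1 higher, against 26.2% and 32.3% of all 229. The comparisons of DN, ES and LS with DP share the DP arrays, so their counts are not independent of each other, and each member is given with its own values. Of the 13 lower in ES, 12 had passed the filter in DP only, and of the 11 lower in LS, 10 had. Median differences of the tested members were -1.57 in ES and -0.57 in LS, against 0.07 and 0.18 over all 229. The calls split by arm: 11 of 16 5p names and 2 of 4 without an arm were lower in ES, 9 and 2 in LS, and 0 of the 7 3p names in either. The members that had passed in DP only were 5p names and miR-466j, and no 3p name was among them. This split is therefore partly set by the filter and carries no further weight.

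**Figure D3:**
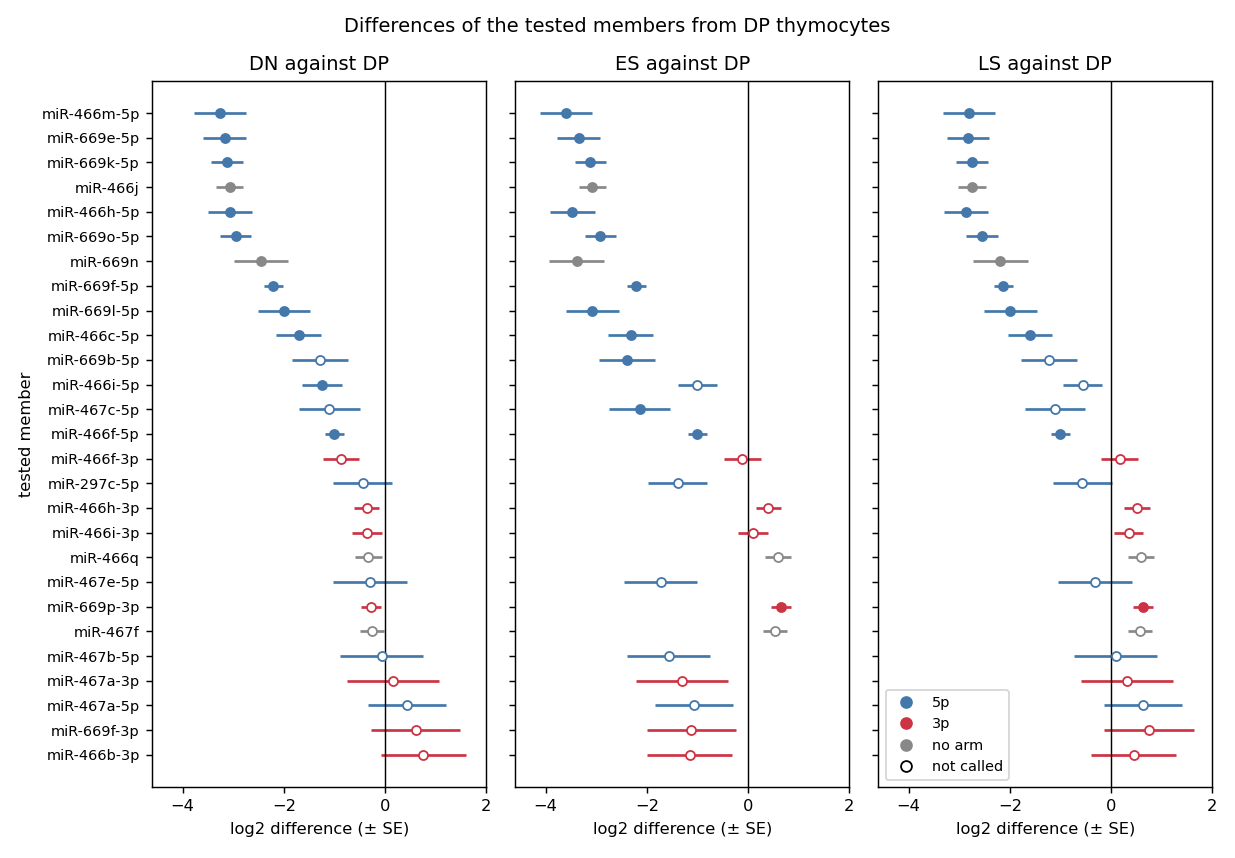
Log2 difference of each of the 27 tested members from DP in DN, ES and LS, with the standard error of the limma fit; colour gives the arm and filled points were called at an adjusted p under 0.05. Filled 5p points lie between -3.60 and -1, and the 3p points lie between -1.31 and 0.76.

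miR-669n read -6.37, -5.34 and -4.28 on the 3 ES arrays and -4.89, -4.41 and -3.07 on the LS arrays. All 6 values lie below the lowest DP value of -2.20, with LS 3 the nearest to it. The difference from DP was -3.39 in ES (SE 0.54, limma adjusted p = 0.000804), where 2 of the 3 arrays were well above background. In LS it was 4.55-fold lower than in DP (-2.19, with the same SE, limma adjusted p = 0.0072). Both calls ended within slide 1, and that in LS also without the filter on dim miRNAs.

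miR-466h-5p read -7.59, -7.59 and -7.26 in ES and -7.59, -7.36 and -5.69 in LS. It was at least 8-fold lower in ES than in DP, and in LS the difference was -2.87 (SE 0.44, limma adjusted p = 0.000462). miR-466m-5p read -7.59, -7.59 and -6.81 in ES and -7.59, -6.78 and -5.25 in LS, at least 8.73-fold lower in ES and with a difference of -2.81 in LS. In both members only LS 3 among the 6 T-ALL arrays was well above background.

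miR-466j sat at the floor on every T-ALL array except LS 3, where it read -6.61, and was at least 6.09-fold lower in ES and at least 6.42-fold lower in LS. miR-669k-5p had the same outline, with LS 3 at -6.48, and was at least 6.29-fold lower in ES and at least 6.42-fold lower in LS. miR-669o-5p read -7.50 on ES 3 and -6.40 on LS 3 and was at the floor on the other 4, at least 5.45-fold lower in ES and at least 5.59-fold lower in LS. None of these 3 was well above background on any T-ALL array. miR-669e-5p read -7.59, -7.59 and -7.43 in ES and -7.59, -7.59 and -5.87 in LS, at least 7.35-fold lower in ES and with a difference of -2.83 in LS, where 1 of 3 arrays was well above background. miR-669f-5p was at the floor on all ES arrays and read -7.59, -7.59 and -7.35 in LS, at least 3.33-fold and 4.17-fold lower. miR-466f-5p was at the floor on all 6 arrays, at least 1.44-fold and 1.9-fold lower.

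miR-669l-5p, at -7.59, -6.51 and -6.22 in ES and -6.73, -5.84 and -4.47 in LS, was at least 6.11-fold lower in ES. In LS it differed from DP by -1.99 (SE 0.52, limma adjusted p = 0.00891), with 2 of 3 LS arrays well above background. miR-466c-5p, at -7.59, -7.12 and -7.59 in ES and -7.59, -7.01 and -5.54 in LS, was at least 3.61-fold lower in ES. In LS it differed by -1.60 (SE 0.44, limma adjusted p = 0.0109), with only LS 3 well above background. Normexp ended the calls of miR-669f-5p, miR-466f-5p and miR-466c-5p in both T-ALL groups. Those of miR-669l-5p and miR-466c-5p also ended within slide 1 in both groups and without the filter on dim miRNAs in LS, and that of miR-466c-5p in LS within slide 2 as well. Slide 1 alone (1 DP, 2 ES and 2 LS arrays) gave 9 members lower and 0 higher in each T-ALL group, with 12.7% of all 229 called in ES and 24.5% in LS. Slide 2 alone held 2 DP arrays and only 1 ES and 1 LS array, which are assumed to vary like the thymocytes. It gave 20 lower and 6 higher in ES and 10 lower and 7 higher in LS, with 72.1% and 64.6% of all 229 called.

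miR-466i-5p was not called in T-ALL. It read -1.33, -1.29 and 0.27 in ES and -0.47, -0.53 and -0.03 in LS, so that ES 3 lay inside the DP range of 0.12 to 0.37 and the other 5 arrays below it. Its difference from DP was -1 in ES (95% CI -1.87 to -0.12, limma adjusted p = 0.0622) and -0.56 in LS (95% CI -1.43 to 0.32, limma adjusted p = 0.245). In ES alone, miR-669b-5p (difference -2.39, SE 0.55, limma adjusted p = 0.00594) and miR-467c-5p (-2.14, SE 0.60, limma adjusted p = 0.0151) were also lower than in DP; whether ES and LS differ in them is given by LS against ES, where both missed the threshold (limma adjusted p = 0.326 and 0.396).

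**Figure D4:**
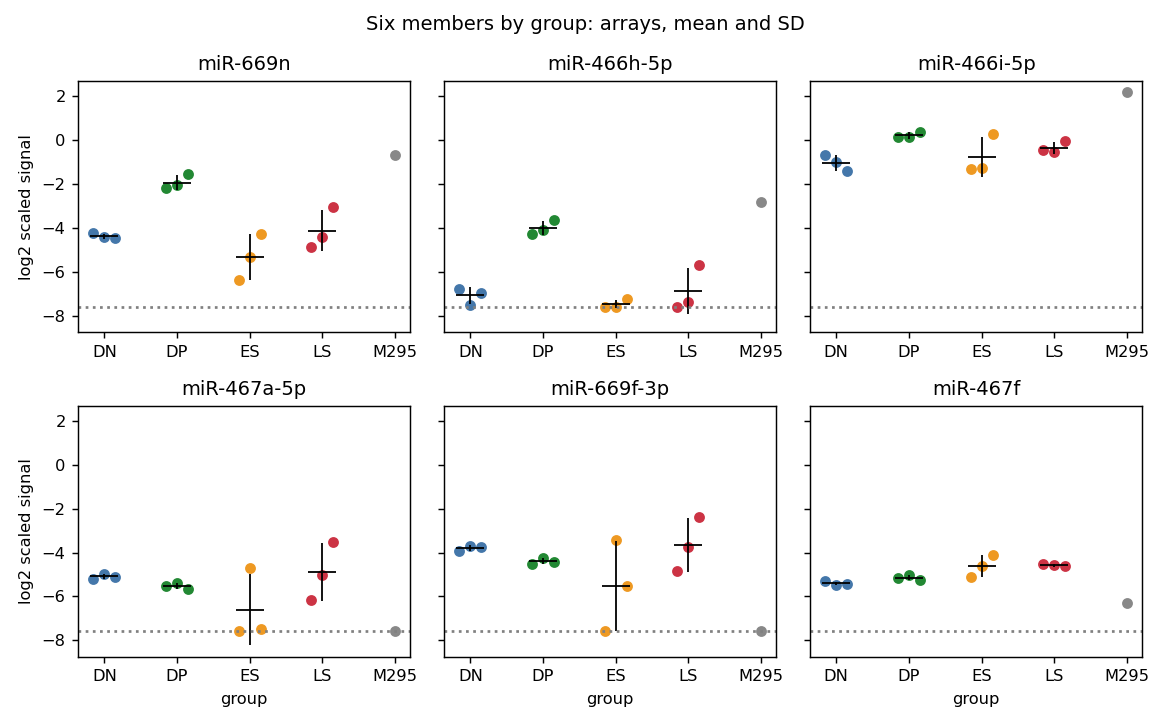
Log2 scaled signal of 6 members on each array by group, with the group mean (horizontal bar) and standard deviation (vertical bar); the dotted line is the floor of -7.59 and M295 has 1 array. miR-669n and miR-466h-5p are high on the 3 DP arrays and on M295, miR-467a-5p and miR-669f-3p are tight in thymocytes and wide in T-ALL, and miR-467f lies within -5.47 to -4.11 on the 12 primary arrays.

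In the other direction, 1 of the 27 tested members was higher in ES and in LS than in DP, where 21% and 32.3% of all 229 miRNAs were. miR-669p-3p, a 3p name from within Sfmbt2, read -5.57, -5.59 and -5.75 in DN, -5.30, -5.22 and -5.55 in DP, -5.03, -4.75 and -4.33 in ES and -4.68, -4.72 and -4.79 in LS. All 6 T-ALL arrays thus lay above all 6 thymocyte arrays. It was higher in ES and in LS than in DP (differences 0.65 and 0.63, SE 0.20 in both, limma adjusted p = 0.0237 and 0.0212). The call in LS ended with the scaling percentile over all miRNAs, with quantile normalization, with normexp and on the authors' deposited values, without the filter on dim miRNAs, within either slide, and without DP replicate 3 or LS replicate 1. The call in ES ended without the filter, within slide 1 (difference 0.41, limma adjusted p = 0.212), without DP replicate 3 and in the replicate block.

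Against DN, 5 members were higher in LS and 0 lower, while 25.8% of all 229 miRNAs were higher and 7.42% lower. In ES, 1 member (miR-669p-3p, difference 0.93, SE 0.20, limma adjusted p = 0.0285) was higher and 0 lower, against 3.93% and 2.62% of all 229. That call ended with normexp (difference 0.29, limma adjusted p = 0.317), without the filter on dim miRNAs, within slide 1, in the replicate block, and without any 1 of the DN arrays, DP replicate 1 or DP replicate 2. The 5 in LS were 3 3p names and 2 without an arm, and 0 of the 16 tested 5p names.

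The 5 members higher in LS than in DN differed by 0.83 to 1.04. miR-466q, encoded within Tnik, read -6.21, -6.32 and -6.20 in DN and -5.14, -5.39 and -5.43 in LS (difference 0.92, SE 0.26, limma adjusted p = 0.021); it read -5.95, -5.71 and -6.09 in DP and -5.89, -5.32 and -4.76 in ES. miR-467f, within Fxr2, read -5.31, -5.47 and -5.44 in DN and -4.51, -4.59 and -4.63 in LS (0.83, SE 0.23, limma adjusted p = 0.0203), with -5.16, -5.02 and -5.26 in DP and -5.11, -4.63 and -4.11 in ES. Both are among the sequences with long CA runs printed above, and in both the LS arrays lay close together and above every DN array. miR-466h-3p read -5.40, -5.58 and -5.55 in DN and -4.52, -4.71 and -4.69 in LS (0.87, SE 0.25, limma adjusted p = 0.0203), with -5.15, -5.05 and -5.25 in DP and -5.22, -4.86 and -4.16 in ES. miR-466f-3p read -7.04, -7.59 and -7.54 in DN and -6.40, -6.50 and -6.15 in LS, at least 1.93-fold higher in LS (limma adjusted p = 0.0491), with -6.66, -6.46 and -6.45 in DP and -7.59, -6.34 and -5.96 in ES. miR-669p-3p differed by 0.91 (limma adjusted p = 0.0105). In all 5 of these members, ES 3 was higher than any LS array. These calls depended on the scaling: 0 members were called with the percentile over all miRNAs, with quantile normalization, with normexp or on the authors' deposited values. In these settings 29.7, 35.4, 20.1 and 33.2% of all 229 miRNAs were still called, in that order. miR-466f-3p turned to -0.08 under normexp. Over all settings tried, the limma adjusted p of the 5 reached up to 0.792. Leaving out any DN array or LS 1 left 1 member called.

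Early and late T-ALL were compared directly. None of the 27 tested members was called between them by limma (lowest adjusted p 0.325, with 1 member at an unadjusted p under 0.05), and 2.18% of all 229 miRNAs were higher in LS and 0.437% lower. The intervals were wide, for example -0.09 to 3.83 (95% CI) around a difference of 1.87 for miR-669f-3p and -0.01 to 3.41 around 1.70 for miR-467a-5p. Without ES replicate 3, 2 members were called.

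The T-ALL arrays varied widely among themselves. In all, 8 tested members were called in no comparison of all 12 arrays: miR-297c-5p, miR-466b-3p, miR-466i-3p, miR-467a-3p, miR-467a-5p, miR-467b-5p, miR-467e-5p and miR-669f-3p, a grouping made after their values were seen. The 6 thymocyte arrays spanned 0.28 to 0.94 in these members, and the 6 T-ALL arrays 1.36 to 5.23. miR-467a-5p read -5.19, -4.96 and -5.11 in DN and -5.53, -5.39 and -5.67 in DP, but -7.59, -4.72 and -7.49 in ES and -6.16, -5.01 and -3.53 in LS. miR-669f-3p read -3.93, -3.71 and -3.74 in DN, -4.51, -4.25 and -4.45 in DP, -7.59, -3.45 and -5.53 in ES and -4.84, -3.76 and -2.37 in LS. In both, LS 3 was the highest and ES 1 the lowest of all 12 primary arrays.

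The same arrays stood at the ends for most members. LS 3 was the highest of the 6 T-ALL arrays for 19 of the 27 tested members, against 20.1% of all 229 miRNAs, and ES 3 for 7, against 31.9%. ES 1 was the lowest or tied for lowest for all 27, against 44.5% of all 229, and 20 of the 27 were at the floor there, against 18.3%. With ES 1 and LS 3 left out, an alternative added after these values were seen, 14 members were called between DN and DP, 17 between ES and DP (4 higher, 13 lower) and 17 between LS and DP (3 higher, 14 lower), where 33.2%, 47.2% and 63.3% of all 229 were called. The high control-spot spread of ES 1 was given above, and its part in these values was not tested.

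Arms of the same hairpin could be set side by side for 18 hairpins, of which 5 had both arms tested. For miR-466h the differences of DN, ES and LS from DP were -3.06, -3.47 and -2.87 for the 5p arm and -0.36, 0.40 and 0.51 for the 3p arm. For miR-669f they were -2.21, -2.21 and -2.13 for 5p and 0.61, -1.12 and 0.75 for 3p, and for miR-466f -1, -1 and -1 for 5p and -0.87, -0.11 and 0.17 for 3p. miR-466i gave -1.25, -1 and -0.56 for 5p and -0.36, 0.10 and 0.35 for 3p. In these 4 hairpins the 5p arm lay further below DP in each comparison. The 5p arms of miR-466h, miR-669f and miR-466f had passed the filter in DP only. That of miR-466f was at the floor on all DN, ES and LS arrays, so the floor set its differences. With normexp the difference of miR-466f-5p in DN was 0.07. The arms of miR-467a ran together instead, at 0.44, -1.07 and 0.63 for 5p and 0.15, -1.31 and 0.31 for 3p. The difference between arms was not tested.

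Members were also split by position. Of 19 tested members within Sfmbt2, 8 were lower in DN than in DP, 10 in ES and 8 in LS, where 18.8%, 25.3% and 26.2% of all 229 miRNAs were lower. Of 6 tested members elsewhere, 3 were lower in DN, 2 in ES and 2 in LS, and of 2 with genes in both places, 1 in each. miR-466j and miR-669n, from chromosomes 10 and 3, were thus highest in DP although they lie outside the cluster. The difference between positions was not tested.

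Each tested member had at least 1 probe above the floor in the thymocytes, and the probes of a member pointed the same way between DN and DP in all 27. Their sizes sometimes varied, from -2.37 to -0.60 for the 2 such probes of miR-466f-5p and from -2.70 to -1.40 for miR-669f-5p, while both probes of miR-466i-5p gave -1.25.

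A feature that the name rule did not use is the UG repeat. The letters UGUGUG, searched in the mature strand after the members' values had been seen, occur in 16 of the 881 array names with a sequence (1.82%), namely in miR-466j, miR-466k and miR-669n among the 7 members with a sequence and in 13 miRNAs of other names. The letters CACACA occur in 10 names (1.14%), 4 of them members. Of the 13 other names with UGUGUG, 8 were tested. Against DP, 7 of these were lower in DN, 7 in ES and 6 in LS (18.8%, 25.3% and 26.2% of all 229). They include miR-672-5p (DN against DP -3.81, SE 0.48, limma adjusted p = 0.000252), miR-32-3p (-3.41, SE 0.53, 0.000926), miR-206-3p (-2.25, SE 0.18, 2.3e-05), whose gene is known for its expression in muscle, miR-1187 (-1.87, SE 0.38, 0.00406) and miR-574-5p (-1.67, SE 0.42, 0.0138). let-7b-5p was the exception, at -0.47 (limma adjusted p = 0.181). These names entered through the same filter as the members. A name that passed only through DP had to be lower somewhere, so the counts describe them and carry no further weight. miR-206-3p, for example, was at the floor on every DN, ES and LS array. The only tested non-member with CACACA, miR-342-3p, differed by 0.87 (limma adjusted p = 0.103) in DN and was higher in ES and LS than in DP (2.45 and 2.40). Sequences with such repeats could share signal on the array, and the part of shared signal in the members' values was not tested.

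The Dlk1-Dio3 cluster, another large imprinted miRNA cluster of the mouse, was set beside these families. Of its 93 names on the array, 6 were detected on any array and 2 were tested, miR-370-3p and miR-494-3p. Of these, 1 was higher in DN than in DP, 2 in ES and 2 in LS, with 0 lower, and 1 was higher in ES and in LS than in DN.

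M295 carries no replicate, so its values are placed against the range of the 12 primary arrays with no test. Of the 61 members, 17 lay above that range, 5 below it and 39 within it. Counting only those detected on M295, 16 of 61 (26.2%) lay above, against 117 of all 1122 mouse miRNAs (10.4%). Of the 16 tested 5p names, 12 lay above and 4 within, and of the 7 tested 3p names, 0 lay above, 2 below and 5 within. The share of all tested miRNAs on each side was not counted. Of the names within, miR-466b-3p, miR-467a-3p, miR-669f-3p, miR-467a-5p and miR-467b-5p were not detected on M295 and lay at the floor there. They count as within only because the array ES 1 was also at the floor for them.

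The members farthest from the range were miR-466i-5p, at 2.17 in M295 against at most 0.37 elsewhere, and miR-466p-5p, at -6.08 against at most -7.46. miR-466f-5p read -5 (at most -6.26 elsewhere), miR-669e-5p -2.70 (at most -3.79) and miR-669o-5p -3.24 (at most -4.24). On the low side, miR-669p-3p read -6.75 against at least -5.75 elsewhere, and miR-466q read -7.32 against at least -6.32. M295 was thus above the DP arrays in the 11 members that were highest in DP, while miR-466b-3p, miR-467a-3p, miR-467a-5p, miR-467b-5p and miR-669f-3p were at the floor there. Of the 8 tested non-members with UGUGUG, 7 also lay above all 12 primary arrays on M295.

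**Figure D5:**
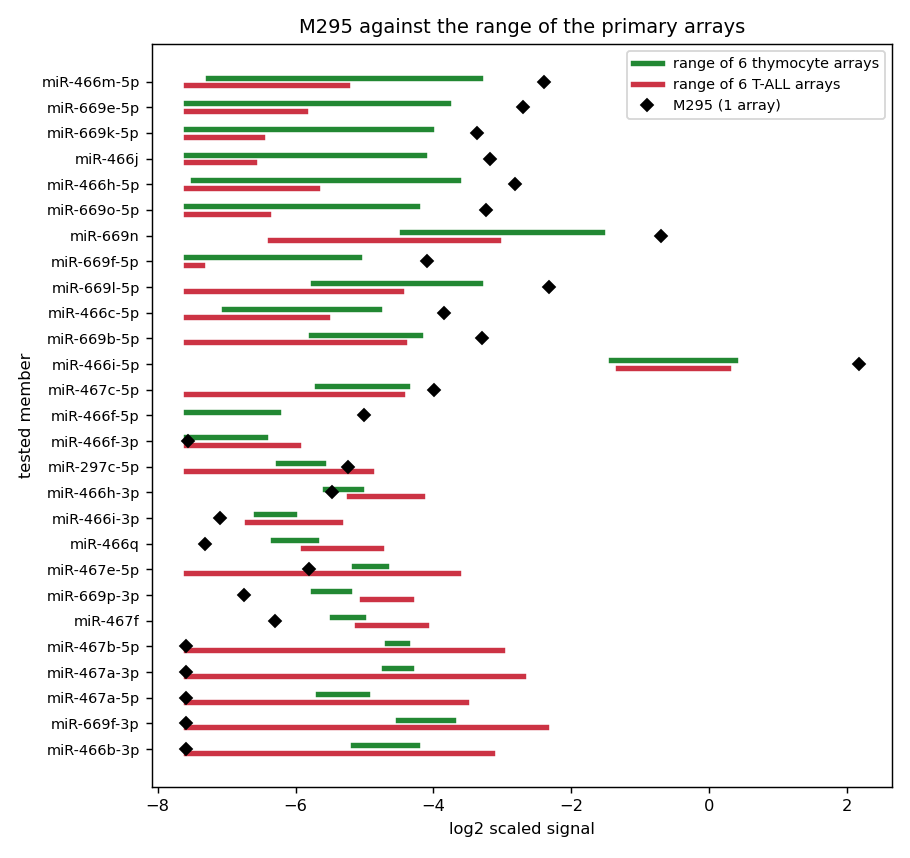
Log2 scaled signal of the 27 tested members on M295 (diamond, 1 array) beside the range of the 6 thymocyte arrays (green bar) and the 6 T-ALL arrays (red bar). Diamonds lie to the right of both bars for 14 members, miR-466i-5p the farthest at 2.17, and to the left of both for 4.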

How the data were processed

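MicroRNA arrays of 13 samples were analysed. Spots were quantified by Agilent Feature Extraction (version 10.7.3.1), per the file headers. The deposited scanner files give each spot a background-subtracted fluorescence intensity, raw and background intensities, a total intensity per miRNA and detection marks, none scaled between arrays. The deposited values per miRNA are on the log2 scale; their columns rank miRNAs as the total intensity does and all have a median of 3.29. RMA, affy, MAS5 and GCOS appear in the submitters' processing notes. Array names follow miRBase release 18, per the labels.

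Control and outlier spots (4.06 to 8.63% of spots per array) were removed, and the kept spots were averaged to probes, then miRNAs. Division by the 75th percentile, taken on each array over the 108 miRNAs that exceeded background well on every primary array, set the scale; values were floored at -7.59 (log2, the median over arrays of the lowest signal well above background) and put on the log2 scale. Well above background means that, for some probe, 50% or more of its kept spots carry the software's mark; detected means gIsGeneDetected. limma 3.58.1 under R 4.3.3 (with data.table, version 1.17.8) was fitted to the 12 primary arrays with 1 mean per group, with Benjamini-Hochberg adjustment within each comparison over 229 miRNAs; the code was tested on simulated data. For a bound, arrays of the lower group were raised to their lowest signal well above background where they lay under it. Precision is limited by 3 arrays per group.

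Given with every array's value were up to 12 members called between DN and DP, those called higher in LS than in DN, in either T-ALL group than in DP, or between LS and ES, up to 6 members above background on all 12 arrays, taken by the smallest difference between DN and DP (only miR-466i-5p was above background on all 12), and on M295 the 6 farthest from the primary range. Members named otherwise were chosen after their values were seen. The families, lists and tests were chosen with earlier results of these data known. The array headers name build mm9, so gene positions on assembly GRCm38.p6 were used only for names and neighbours. Other scalings, background corrections, filters, slide and replicate blocks, and single arrays left out were tried.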

Additional observations from a re-analysis of the deposited data

Results flagged for a closer look

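The M295 array entered no test. It detected 16 members at a level above all 12 primary arrays, whereas 10.4% of all 1122 mouse miRNAs did so. On the log2 scale of the scaled signal these values were 2.17 for miR-466i-5p, -0.70 for miR-669n, -2.33 for miR-669l-5p, -2.39 for miR-466m-5p, -2.70 for miR-669e-5p, -2.81 for miR-466h-5p, -3.18 for miR-466j, -3.24 for miR-669o-5p, -3.30 for miR-669b-5p, -3.37 for miR-669k-5p, -3.84 for miR-466c-5p, -3.99 for miR-467c-5p, -4.10 for miR-669f-5p, -5 for miR-466f-5p, -6.08 for miR-466p-5p and -6.67 for miR-466a-5p. Of these, miR-466p-5p and miR-466a-5p were detected on M295 and on no other array. With 1 array, the line and its hybridization cannot be told apart.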

How the results depend on the processing

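The counts of members called were 12 for DN against DP, 14 for ES against DP, 12 for LS against DP, 0 for LS against ES, 1 for ES against DN and 5 for LS against DN. Of all 229 miRNAs, 29.3, 46.3, 58.5, 2.62, 6.55 and 33.2% were called. The counts of members moved by over 1.5 times as follows, in that order of comparisons, with the percentage of all miRNAs called in brackets. With the percentile over all miRNAs, ES against DN gave 5 (17.9%) and LS against DN 0 (29.7%). This scaling moved the median of all 229 miRNAs from 0.07 to 0.66 in ES against DP and from 0.15 to -0.31 in LS against DN. It split ES against DP into 5 higher and 13 lower (52.8% for both directions). Quantile normalization gave 3 and 0 in the comparisons with DN (12.2 and 35.4%) and the authors' deposited values 2 and 0 (7.86 and 33.2%). The filter on gIsGeneDetected gave 2 for ES against DN (7.09% of its 268 miRNAs). Normexp gave 5 for DN against DP (18.3%) and 0 and 0 in the comparisons with DN (0 and 20.1%). It turned miR-466f-5p to 0.07 in DN against DP and miR-466f-3p to -0.08 in LS against DN. Without a filter, over all 61 members, ES against DN gave 0 and LS against DN 1, with 8, 11 and 8 members called against DP. Of all 1122 miRNAs, 0.0891 and 1.87% were called in the comparisons with DN and 5.35, 7.22 and 9.18% in those with DP. Of the members, only miR-466i-5p was well above background on all 12 arrays, and that filter gave 1, 1, 0, 0 and 0 (LS against ES 0 as before). Of its 108 miRNAs, 30.6, 54.6, 63, 6.48 and 32.4% were called in these 5 comparisons. Slide 1 alone gave 6 and 9 for DN and ES against DP and 0 and 0 for ES and LS against DN; slide 2 alone, with 1 ES and 1 LS array assumed to vary like the thymocytes, gave 19, 26, 18, 17 and 25 for all but LS against DP, where 49.8 to 72.1% of all miRNAs were called. The replicate block gave 0 for ES against DN (2.62%), 13 for ES against DP (36.7%) and 4 for LS against DN (28.8%). It left the other counts as they were. The labels give replicate numbers and state no pairing. Over 18 same-numbered pairs of arrays, deviations from the group means correlated at -0.338 to 0.496, with 6 over 0.1. With 3 arrays per group these correlations cannot show whether same-numbered samples were paired. Added after seeing the data, the 6 thymocyte arrays alone gave 24 for DN against DP (71.6%), and leaving out ES 1 and LS 3 gave 6 for ES against DN (10%). Leaving out 1 array at a time gave 9 to 13, 12 to 21, 11 to 16, 0 to 2, 0 to 7 and 1 to 7, and 11 to 15 for the members highest in DP. The cause of these changes was not tested. The total signal per miRNA, the slide as a block and the lower floor left every count within 1.5 times.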

Other observations

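A few members outside the tested set still showed an order over the arrays, and are named here after their values were seen. miR-669c-3p read -7.05, -7.32 and -7.51 in DN and -6.86, -6.59 and -6.93 in DP, against -6.44, -6.09 and -5.61 in ES and -5.98, -6.12 and -6.47 in LS. All 6 T-ALL arrays lay above all 6 thymocyte arrays, but the member was detected on no DN array and not on ES 1. Its ES 1 value lies under the lowest signal well above background on that array, -6.18. The share of all miRNAs with such an order was not counted. miR-669c-3p was at the floor on M295. miR-467d-3p read -6.56, -6.52 and -6.68 in DN and -6.79, -6.42 and -6.59 in DP, but -7.59, -5.83 and -7.59 in ES and -7.59, -6.43 and -4.59 in LS, with LS 3 again the highest. miR-466g and miR-669a-3-3p were detected on 2 arrays each and had their highest values on LS 3, at -6.64 and -6.63. None of these 4 was well above background on all 3 arrays of a group, and none was tested.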
